A study of Mus musculus with 14 samples.

Results

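Levels of 10 transcripts that serve the copying and transcription of mitochondrial DNA were followed in Nes-GFP+ bone marrow stromal cells (BMSCs) of leukemic and normal mice. The genes were taken by name out of the 27099 lines of the count table: Tfam, Tfb2m, Polrmt, Tefm and Tfb1m of the transcription side, Polg, Polg2 and Ssbp1 of the copying side, and Nrf1 and Gabpa, which act in the nucleus. No measured value was used to choose them, although earlier results of these data were known. All 10 were found in the table, and all 10 had enough counts to be tested, as did 18152 genes in all.

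Mitochondria keep a small circular genome of their own, which is packed by proteins into nucleoids and encodes a few subunits of the respiratory chain together with the RNAs needed to translate them. Every enzyme that copies or transcribes this genome is encoded in the nucleus and imported. In mammals, the mitochondrial RNA polymerase Polrmt needs Tfam, which bends and coats the DNA, and Tfb2m, which opens the promoter, whereas DNA is copied by the polymerase Polg with its accessory subunit Polg2 behind a helicase, with the exposed strand held by Ssbp1. Nuclear respiratory factor 1 (Nrf1) and the GA binding protein, whose DNA-binding subunit is Gabpa, are transcription factors known to bind the promoters of many nuclear genes for mitochondrial proteins. BMSCs that express the Nes-GFP reporter are known for their support of hematopoietic stem cells.

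Cells with high and with low GFP, which is driven by regulatory elements of nestin in the Nes-GFP reporter, were sorted from bones digested with collagenase. AML mice were primary iMLL-AF9 mice, which carry rtTA in the ROSA26 locus and a human MLL-AF9 fusion under a tetracycline-response element, were given doxycycline and were killed when leukemia was evident. From them 2 libraries were made of the Nes-GFP high and 4 of the Nes-GFP low fraction. Normal mice, which the study calls wild type and which drank sucrose water as vehicle, account for 2 and 6. Leukemia, the transgenes and doxycycline thus go together and cannot be told apart. The sort kept cells negative for CD45, CD31 and DAPI, and for Ter119 by the study's methods but not by the sample labels. The study used adult mice of both sexes, without saying which gave which library. Some libraries came from a pool of 2 mice and others from a single mouse, with no record of which, so p-values measure the spread between these libraries, part of which may be technical. RNA with a polyA tail was amplified with Smart-seq2, which makes full-length cDNA from few cells.

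Promoters are shown first for the genes on which the comparisons turn, because Nrf1 and Gabpa are themselves among the 10. Each sequence runs 5′ to 3′ on the gene's own strand, from 250 bases before the annotated start to 50 bases after it (RefSeq, GRCm38.p6). Capitals mark the GABP letters CCGGAAG and the NRF1 core GCGCATGC, each read on both strands, so that they also appear as CTTCCGG and GCATGCGC. Tfam (chr10:71237995-71238294, minus strand), Tefm (chr11:80142104-80142403, minus strand) and Polg2 (chr11:106779488-106779787, minus strand) are the genes whose levels in the Nes-GFP high fraction did not overlap between AML and normal mice. Tfb2m (chr1:179546227-179546526, minus strand) and Polrmt (chr10:79746532-79746831, minus strand) are those with the NRF1 core.
Tfam: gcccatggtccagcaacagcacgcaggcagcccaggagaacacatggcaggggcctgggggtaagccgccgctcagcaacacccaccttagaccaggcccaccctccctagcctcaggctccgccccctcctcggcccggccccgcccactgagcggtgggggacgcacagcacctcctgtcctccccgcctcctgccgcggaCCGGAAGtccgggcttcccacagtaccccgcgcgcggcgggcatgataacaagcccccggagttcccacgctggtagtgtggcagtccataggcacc
Tefm: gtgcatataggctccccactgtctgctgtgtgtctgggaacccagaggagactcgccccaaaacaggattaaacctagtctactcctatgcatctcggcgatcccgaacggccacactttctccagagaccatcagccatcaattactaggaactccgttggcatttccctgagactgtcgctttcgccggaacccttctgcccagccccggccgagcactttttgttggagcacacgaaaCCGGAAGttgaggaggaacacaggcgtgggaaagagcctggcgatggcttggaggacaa
Polg2: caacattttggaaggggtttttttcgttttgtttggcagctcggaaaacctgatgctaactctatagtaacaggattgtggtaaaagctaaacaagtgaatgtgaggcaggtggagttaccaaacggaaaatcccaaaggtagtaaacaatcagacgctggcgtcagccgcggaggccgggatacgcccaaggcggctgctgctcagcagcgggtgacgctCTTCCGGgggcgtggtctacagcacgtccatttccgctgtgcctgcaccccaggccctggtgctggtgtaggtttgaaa
Tfb2m: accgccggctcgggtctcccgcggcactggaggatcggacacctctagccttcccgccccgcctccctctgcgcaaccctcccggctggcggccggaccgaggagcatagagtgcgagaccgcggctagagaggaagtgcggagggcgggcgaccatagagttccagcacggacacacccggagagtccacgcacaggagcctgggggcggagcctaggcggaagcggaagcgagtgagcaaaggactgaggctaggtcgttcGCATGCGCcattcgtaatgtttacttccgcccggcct
Polrmt: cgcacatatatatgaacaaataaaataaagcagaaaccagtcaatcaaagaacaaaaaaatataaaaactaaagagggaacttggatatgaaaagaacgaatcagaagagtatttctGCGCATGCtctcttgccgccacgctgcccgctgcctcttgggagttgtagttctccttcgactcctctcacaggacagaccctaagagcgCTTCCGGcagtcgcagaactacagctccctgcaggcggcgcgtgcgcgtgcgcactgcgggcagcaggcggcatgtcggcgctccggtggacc

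RefSeq windows were found for 10 of the 10 genes. The GABP letters stood in 7 of them, against 9.93% of the 27025 genes with a window. Counted from the annotated start, they lay at -47 in Tfam and Ssbp1, -43 in Polrmt, -38 in Polg, -29 in Polg2, -9 in Tefm and -93 in Gabpa itself. The longer form CCGGAAGT was found in Tfam, Polg and Tefm, and in 4.31% of genes. The NRF1 core was found in Polrmt and Tfb2m, and in 3.05% of genes. Neither set of letters was in the windows of Nrf1 and Tfb1m. The GABP letters were thus found both in genes whose groups separated, such as Tfam, and in Polg, whose groups overlapped in every comparison. Such letters describe the window and do not show binding.

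Libraries held 5615941 to 11436652 counts, so that 1 read was worth 0.0915 to 0.162 CPM (counts scaled to library size with TMM factors). The share of tested genes under 1 CPM was 18.2% to 30.6% in Nes-GFP low libraries and 32.5% to 40.4% in Nes-GFP high libraries, highest in normal Nes-GFP high replicate 1, where 27.6% of tested genes had no count. Nes itself stood at 32.3 and 26.6 CPM in AML and 36.0 CPM in normal replicate 2 of the Nes-GFP high libraries, but at 2.27 CPM in normal replicate 1, among the 0 to 5.69 CPM of the 10 Nes-GFP low libraries. The summed level of 10 myeloid markers ran from 594 to 71202 CPM over the 14 libraries, that of 10 erythroid markers from 24.1 to 8333 CPM, that of 10 lymphoid markers from 33.9 to 3142 CPM, that of 11 stromal markers from 835 to 83017 CPM, and that of the 6 of 8 endothelial markers in the table from 1.51 to 47.7 CPM. The lymphoid sum can rest on 1 gene. Ebf1 made 139 of its 151 CPM in AML and 213 of its 248 CPM in normal Nes-GFP high replicate 2. Ptprc, which encodes the CD45 that the sort excluded, was at 3.94 to 482 CPM. In such bulk libraries, fewer cells of a type and less RNA per cell cannot be told apart.

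The 10 genes were low to middling transcripts. Their levels summed to 454 and 350 CPM in the AML libraries of Nes-GFP high cells, to 228 and 260 CPM in the normal ones, and to 251 to 346 CPM in AML and 226 to 402 CPM in normal Nes-GFP low BMSCs. Per kilobase of merged exons, Ssbp1, which coats single-stranded DNA, had the highest median over the 10 Nes-GFP low libraries, 7.03 CPM per kilobase (range 4.57 to 23.1). Polg followed with 5.71, Gabpa with 5.18, Nrf1 with 4.83, Tfam with 4.10, Polg2 with 4.03, Tfb2m with 3.91, Polrmt with 3.74, Tfb1m with 3.51 and Tefm with 2.73 CPM per kilobase. Neighbours in this order overlapped widely, and their places depended on the length used. With the longest transcript Ssbp1 was still first (13.4 CPM per kilobase) and Tefm last (3.28), but Nrf1 was second (12.3).

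**Figure D1:**
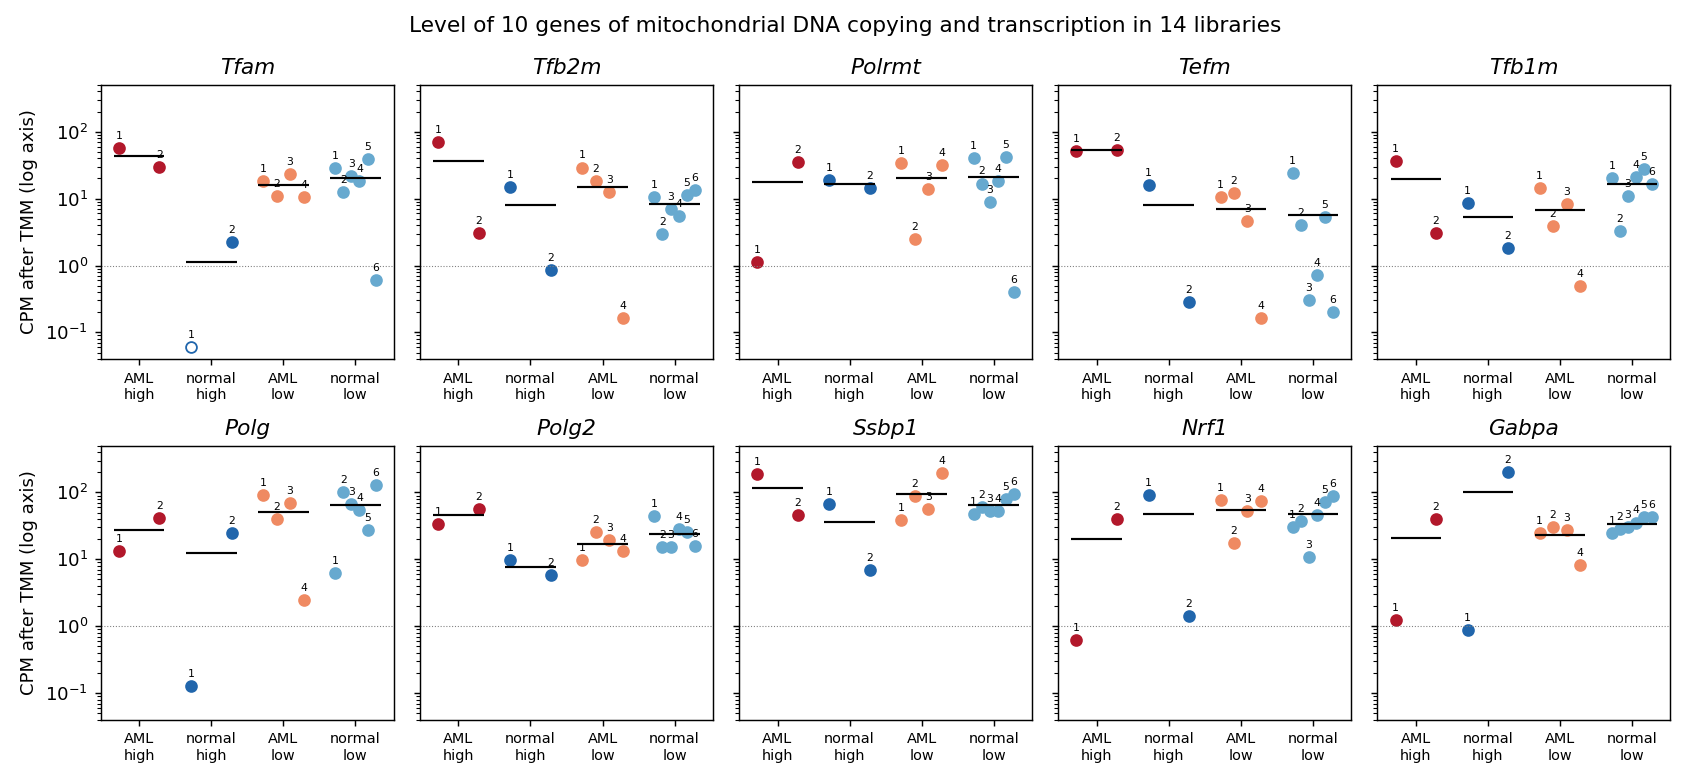
Level (CPM after TMM scaling, log axis) of each of the 10 genes in the 14 libraries, with a numbered point for each replicate, and the group mean as a bar; the open point is a library with no count of Tfam, drawn at the bottom of the axis, and the dotted line is 1 CPM. Tfam and Polg2 are higher in both AML Nes-GFP high libraries (Tfam 56.9 and 29.9 CPM) than in both normal ones (0 and 2.27 CPM), while points of Nrf1 and Gabpa lie far apart within the same Nes-GFP high group.

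The first question was whether these genes stood at another level in Nes-GFP high BMSCs once leukemia had developed. No member was called by edgeR's quasi-likelihood test with an adjusted p under 0.05, and neither was any other gene in either direction (0% of tested genes). At an unadjusted p under 0.05, edgeR had 2 of the 10 higher, Tfam and Polg2, against 7.62% of all tested genes, and none lower (4.54% of all). DESeq2 called the same 2 genes higher, against 6.24% of the genes it tested, and none lower (4.27%), while limma voom called none (0% of genes). In 3 of the 10, Tfam, Tefm and Polg2, both AML libraries were above both normal libraries, against 16.0% of all tested genes, and in no member were both below (11.5% of all). Fitted log2 fold changes were above 0 in 8 of the 10 (52.1% of all genes) and below 0 in 2 (45.0%), with a median of 1.80 against 0.08 over all tested genes.

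Tfam (ENSMUSG00000003923, chr10:71225464-71238280, minus strand), which packs the mitochondrial genome and is needed to start its transcription, was the gene with the largest fitted change of the 10. It had 460 and 286 reads in AML replicates 1 and 2 and 0 and 16 reads in normal replicates 1 and 2, or 56.9 and 29.9 CPM against 0 and 2.27 CPM. The groups did not overlap, and both normal libraries had few reads or none. For Tfam the fitted log2 fold change was 5.25 (standard error 1.86, edgeR adjusted p = 0.321, DESeq2 adjusted p = 0.00710). Without normal replicate 1 it was 4.35. Without normal replicate 2 the remaining normal library had no read, so that the fitted 11.7 depends on the prior count. Against the floor of 3 reads in that library (0.378 CPM), the AML mean of 43.4 CPM was 115-fold higher. This floor covers counting error only, and 27.6% of tested genes had no count in that library. The lowest adjusted p with any library left out was 0.0883 (edgeR).

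Tfb2m (ENSMUSG00000026492, chr1:179528055-179546267, minus strand), which melts the promoter for Polrmt, had 566 and 29 reads in AML and 119 and 6 reads in normal replicates 1 and 2, or 70.0 and 3.03 CPM against 14.99 and 0.850 CPM. The groups overlapped, and in each the first library was far above the other. Its log2 fold change of 2.20 (standard error 1.79, edgeR adjusted p = 0.716) turned to -1.42 without AML replicate 1. Polrmt (ENSMUSG00000020329, chr10:79736123-79746581, minus strand), the polymerase itself, had 9 and 334 reads in AML (1.11 and 34.9 CPM) and 149 and 103 reads in normal mice (18.8 and 14.6 CPM). The normal libraries lay between the AML libraries. For Polrmt the fitted log2 fold change was 0.11 (standard error 1.67, edgeR adjusted p = 1.0), and it ran from -3.93 without AML replicate 2 to 1.04 without AML replicate 1.

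Tefm (ENSMUSG00000046909, chr11:80136678-80142175, minus strand), the factor that keeps Polrmt on the template during elongation, was at nearly the same level in both AML libraries, 51.5 and 53.5 CPM (417 and 512 reads). Normal replicate 1 had 125 reads (15.7 CPM) and normal replicate 2 had 2 reads (0.283 CPM). Both AML libraries were thus above both normal ones, which differed 13.05-fold between themselves on CPM plus 1. The log2 fold change was 2.71 (standard error 2.25, edgeR adjusted p = 0.727) and 7.57 without normal replicate 1, 1.69 without normal replicate 2. Tfb1m (ENSMUSG00000036983, chr17:3519256-3557781, minus strand), which methylates the small ribosomal RNA of mitochondria, had 36.8 and 3.03 CPM in AML (298 and 29 reads) and 8.69 and 1.84 CPM in normal mice (69 and 13 reads). These ranges overlapped, and its log2 fold change of 1.92 (standard error 1.51, edgeR adjusted p = 0.700) was -0.83 without AML replicate 1.

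On the copying side, Polg2 (ENSMUSG00000020718, chr11:106768253-106779537, minus strand), the accessory subunit that holds the DNA polymerase on its template, had replicates close to each other in both groups. It stood at 34.2 and 56.8 CPM in AML (277 and 544 reads) and at 9.70 and 5.81 CPM in normal mice (77 and 41 reads), without overlap. Its log2 fold change was 2.55 (standard error 0.90, edgeR adjusted p = 0.321, DESeq2 adjusted p = 0.0146), and it stayed between 2.10 and 3.09 whichever of the 14 libraries was left out. Polg (ENSMUSG00000039176, chr7:79446231-79466362, minus strand), the catalytic subunit, had 13.1 and 41.6 CPM in AML (106 and 398 reads) and 0.126 and 24.4 CPM in normal mice (1 and 172 reads). The groups overlapped, and normal replicate 1 with its single read was far below the rest. For Polg the fitted log2 fold change was 1.16 (standard error 1.72, edgeR adjusted p = 0.917), 0.08 without AML replicate 2 and 7.58 without normal replicate 2.

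Ssbp1 (ENSMUSG00000029911, chr6:40471352-40484700, plus strand) stood at 188 and 46.4 CPM in AML (1521 and 444 reads) and at 66.5 and 6.94 CPM in normal mice (528 and 49 reads). The groups overlapped through AML replicate 2 and normal replicate 1. Ssbp1 reached a log2 fold change of 1.67 (standard error 1.02, edgeR adjusted p = 0.527) and 0.30 without AML replicate 1.

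Both nuclear regulators had negative fold changes that rested on single libraries. Nrf1 (ENSMUSG00000058440, chr6:30047988-30153458, plus strand) was at 0.618 and 40.3 CPM in AML (5 and 386 reads) and at 92.8 and 1.42 CPM in normal mice (737 and 10 reads). Gabpa (ENSMUSG00000008976, chr16:84834925-84863779, plus strand) was at 1.24 and 40.5 CPM in AML (10 and 388 reads) and at 0.882 and 202 CPM in normal mice (7 and 1426 reads). In each group 1 library was high and the other nearly without reads, so the groups overlapped fully. The log2 fold change of Nrf1 was -1.20 (standard error 1.62, edgeR adjusted p = 0.900), and 3.98 without normal replicate 1. That of Gabpa was -2.28 (standard error 1.63, edgeR adjusted p = 0.632), and 4.51 without normal replicate 2.

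**Figure D2:**
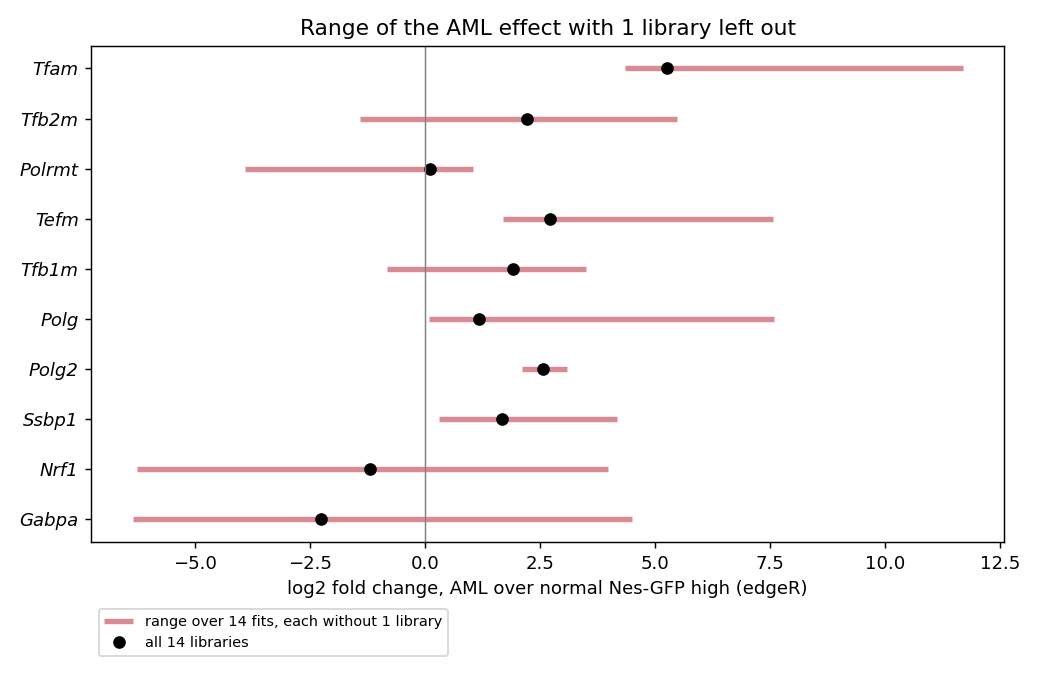
Log2 fold change of AML over normal Nes-GFP high BMSCs for each gene (edgeR), with all 14 libraries (black points) and as the range over 14 fits that each leave out 1 library (red bars). The bar of Polg2 is short (2.10 to 3.09), that of Tfam starts at 4.35, and those of Tfb2m, Polrmt, Tfb1m, Nrf1 and Gabpa cross 0.

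Of these 4 libraries, normal replicate 1 stood apart in its low Nes level, its many genes without a count and its blood cell markers. It held 23165 CPM of the myeloid markers and 3136 CPM of the erythroid markers. The values were 1450 and 189 CPM in normal replicate 2, 8408 and 82.5 CPM in AML replicate 1 and 1715 and 24.1 CPM in AML replicate 2. Its level of Ptprc was 109 CPM, against 6.23 to 16.8 CPM in the other three. None of the 10 markers in either list was at 0 in it. On the 11 stromal markers AML replicate 1 was the lowest, with 6113 CPM, against 41888 CPM in AML replicate 2 and 61585 CPM in normal replicate 2. Normal replicate 1 was the highest on them, with 83017 CPM, of which Col1a1 made 51850 CPM and Pdgfrb 0.882 CPM. The part of these differences in the levels of the 10 genes was not tested. Without this library, AML and normal values did not overlap for 6 members on the higher side, Tfam, Tfb2m, Tefm, Tfb1m, Polg2 and Ssbp1 (27.5% of all tested genes), and for Gabpa on the lower side (34.1% of all). Without normal replicate 2 in its place, they were Tfam, Tefm, Polg, Polg2 and Gabpa on the higher side (38.2% of all) and Nrf1 on the lower side (23.7% of all). Tfam, Tefm and Polg2 are in both lists by construction, because they did not overlap with all 4 libraries either. These counts were added after the values had been seen.

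DESeq2's calls of members also turned on single libraries, in fits that left out each of the 4 Nes-GFP high libraries and were likewise added after the values had been seen. Tfam had a log2 fold change of 5.49 without AML replicate 2 and 10.8 without normal replicate 2, where the remaining normal library had no read. It had 4.71 without AML replicate 1 and 4.13 without normal replicate 1, and in both it was no longer called. Polg2 was called without AML replicate 1 (DESeq2 adjusted p = 0.0259) and without normal replicate 1 (0.0274), but not without AML replicate 2 (0.141) or normal replicate 2 (0.0787). Neither call thus stood in all 4 fits, while both log2 fold changes stayed above 0 in each. Other members also moved where 1 library remained in a group. Among them, Tefm had 7.42 and Ssbp1 had 3.94 without normal replicate 1. Without normal replicate 2, Polg had 7.74 and Gabpa had 4.57. Without AML replicate 2, Nrf1 had -6.38 and Gabpa had -6.53. Gabpa thus had opposite signs in different fits. Such fits take the spread of a group with a single library from the rest. With any 1 of the 14 libraries left out, edgeR called no member in any comparison.

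Replicates of Nes-GFP high BMSCs differed by more than 10-fold, on CPM plus 1, in 4 of the 10 genes in AML mice (Tfb2m, Polrmt, Nrf1 and Gabpa) and in 4 of the 10 in normal mice (Tefm, Polg, Nrf1 and Gabpa). Over the 7318 tested genes whose mean level lay in the range of the 10 (12.7 to 76.7 CPM), 27.0% and 31.3% differed as much. The median fold between replicates was 6.69 for the members against 2.83 for these genes in AML mice, and 8.57 against 3.41 in normal mice. Polg2 was steady in both, with folds of 1.64 and 1.57.

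In Nes-GFP low BMSCs, with 4 AML and 6 normal libraries, no member passed a test between AML and normal mice. These libraries differed widely in make-up. The 11 stromal markers summed to 835 to 32349 CPM in AML and 5794 to 70226 CPM in normal libraries. The 10 myeloid markers summed to 5463 to 67989 CPM in AML and 594 to 71202 CPM in normal libraries. The part of these differences in the levels of the 10 genes was not tested. Ranges overlapped for each of the 10 genes, where 0.441% of all tested genes lay wholly higher and 0.667% wholly lower in AML. edgeR called no gene (0% in either direction), and none of the 10 had an unadjusted p under 0.05 in it (2.64% of all genes higher, 2.90% lower), and DESeq2 called none (0.208% higher, 0.473% lower). The adjusted p was 1.0 for each of them (edgeR), 4 had a log2 fold change above 0 (50.2% of all genes) and 6 below (49.8%), and their median was -0.19 against 0.00 over all tested genes.

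Tfam had 18.0, 11.1, 23.4 and 10.6 CPM in AML replicates 1 to 4 (15.8 ± 6.14, SD, n = 4). In normal mice it ran from 0.606 CPM (6 reads, replicate 6) through a median of 19.9 to 38.5 CPM. All 4 AML libraries lay inside the normal range, and the log2 fold change was -0.35 (standard error 1.0, edgeR adjusted p = 1.0). Tfb2m had 29.1, 18.6, 12.6 and 0.162 CPM in AML mice, the last from a single read in replicate 4, and 2.93 to 13.3 CPM with a median of 8.79 in normal mice. AML replicates 1 and 2 were above every normal library and replicate 4 below every one. The log2 fold change came to 0.84 (standard error 1.09, edgeR adjusted p = 1.0).

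Polrmt stood at 33.5, 2.49, 14.1 and 32.0 CPM in AML mice and at 0.404 to 41.9 CPM (median 17.5) in normal mice, with the lowest value from 4 reads in normal replicate 6. This gave a log2 fold change of -0.04 (standard error 1.08, edgeR adjusted p = 1.0). Tefm stood at 10.6, 12.3, 4.61 and 0.162 CPM in AML mice and at 0.202 to 24.2 CPM (median 2.35) in normal mice, with 3 or fewer reads in normal replicates 3 and 6 and in AML replicate 4. The log2 fold change was 0.26 (standard error 1.36, edgeR adjusted p = 1.0) and 1.72 without normal replicate 1, its highest library. Tfb1m had 14.5, 3.89, 8.21 and 0.487 CPM in AML mice and 3.30 to 28.1 CPM (median 18.5) in normal mice, where 4 of 6 libraries were above every AML library. This was the largest fitted change of the 10 in Nes-GFP low cells, -1.30 (standard error 0.99, edgeR adjusted p = 1.0).

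Polg had 91.2, 40.7, 69.6 and 2.44 CPM in AML mice and 6.20 to 130 CPM (median 61.3) in normal mice. AML replicate 4, with 15 reads, was the lowest of the 10 libraries, and without it the log2 fold change of -0.34 (standard error 1.10, edgeR adjusted p = 1.0) was 0.08. Polg2 had 9.89, 25.3, 19.2 and 13.2 CPM in AML mice and 15.1 to 44.4 CPM (median 20.8) in normal libraries. The fitted change was -0.52 on the log2 scale (standard error 0.56, edgeR adjusted p = 1.0), and it stayed between -0.78 and -0.25 with any library left out. Ssbp1 had 38.2, 88.7, 56.0 and 193 CPM in AML mice and 48.2 to 93.3 CPM (median 57.5) in normal mice. Its highest level, in AML replicate 4, was above every normal library, and without it the log2 fold change of 0.53 (standard error 0.64, edgeR adjusted p = 1.0) was -0.05.

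Nrf1 stood at 76.1, 17.8, 53.1 and 73.4 CPM in AML mice and at 10.7 to 88.0 CPM (median 42.1) in normal mice, with a log2 fold change of 0.21 (standard error 1.02, edgeR adjusted p = 1.0). Gabpa stood at 24.6, 30.5, 27.9 and 8.12 CPM in AML mice and at 24.7 to 43.5 CPM (median 33.0) in normal mice. For Gabpa the normal libraries lay close together and AML replicate 4 alone was well below them. The log2 fold change was -0.59 (standard error 1.02, edgeR adjusted p = 1.0) and -0.28 without that library. AML replicate 4 had the fewest counts of the 14 libraries and 8213 CPM of the erythroid markers, against 37.3 to 131 CPM in the other AML and 575 to 8333 CPM in the normal Nes-GFP low libraries, and 3 of the 10 genes were under 1 CPM in it. The part of these differences in its low levels was not tested.

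**Figure D3:**
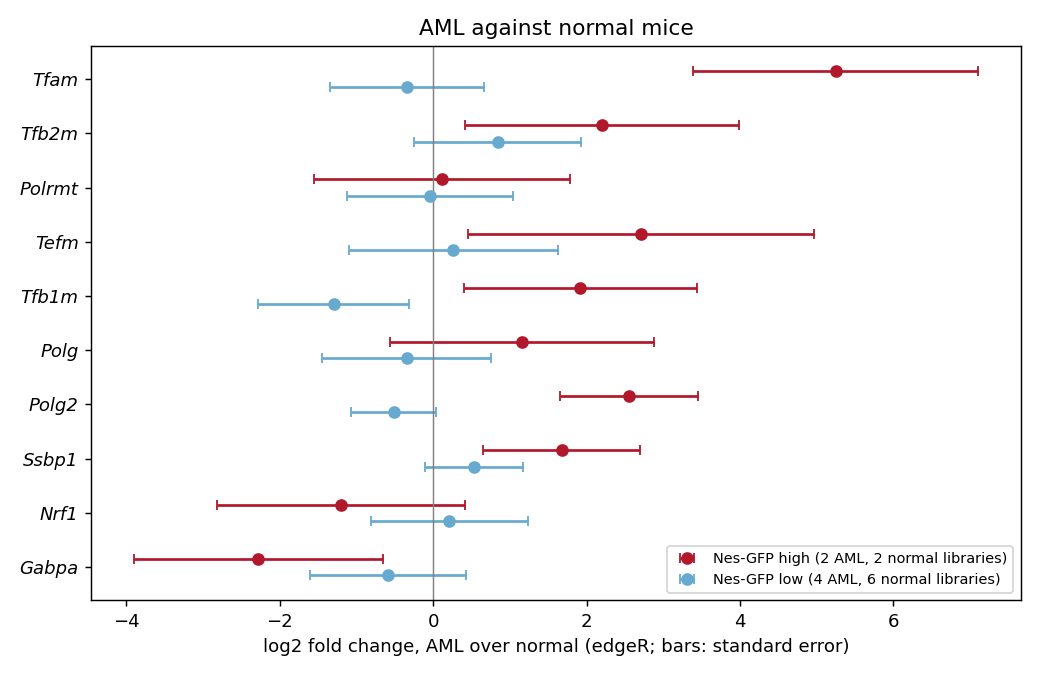
Log2 fold change of AML over normal mice (edgeR, with standard error bars) for the 10 genes in Nes-GFP high (red) and Nes-GFP low (blue) BMSCs. Tfam (5.25 and -0.35) and Polg2 (2.55 and -0.52) are the genes whose values lie farthest from 0 against their error bars in Nes-GFP high cells, and the values of Nes-GFP low cells lie between -1.30 (Tfb1m) and 0.84 (Tfb2m).

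Whether the effect of AML differed between the populations was tested as such. For Tfam the effect was larger in Nes-GFP high cells by 5.60 on the log2 scale (standard error 2.06, edgeR adjusted p = 0.442, DESeq2 adjusted p = 0.0284), and for Polg2 by 3.07 (standard error 1.05, edgeR adjusted p = 0.420, DESeq2 adjusted p = 0.0210). These were the 2 members with an unadjusted p under 0.05 in edgeR (6.41% of all tested genes in the same direction, none of the members and 3.55% of genes in the other) and the 2 that DESeq2 called (3.28% of genes, with none of the members and 1.79% of genes in the other direction). edgeR called no gene (0%). The difference for Tfb1m was 3.21 (standard error 1.82, edgeR adjusted p = 0.600), and those of the other 7 ran from -1.69 for Gabpa to 2.45 for Tefm. In all 8 were above 0 (53.5% of all genes) and 2 below (46.5%). In the DESeq2 fits without 1 Nes-GFP high library, the difference for Tfam ran from 4.49 to 11.2. The highest Tfam value came without normal replicate 2, where the remaining normal Nes-GFP high library had no Tfam read. Without any other of the 4 libraries, Tfam was no longer called. For Polg2 the difference ran from 2.53 to 3.39, and its call was lost without AML replicate 2 or normal replicate 2. Gabpa had 5.13 without normal replicate 2 and -5.97 without AML replicate 2. Nrf1 had 3.57 without normal replicate 1 and -6.59 without AML replicate 2. Ssbp1 had 3.42 without normal replicate 1, and Polg had 8.04 without normal replicate 2.

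High and low BMSCs were next compared within mice of 1 kind, so that these comparisons share their libraries with those above. In normal mice, Tfam stood at 0 and 2.27 CPM in Nes-GFP high cells and at 0.606 to 38.5 CPM in Nes-GFP low cells. The groups overlapped through Nes-GFP low replicate 6 alone, and the other 5 Nes-GFP low libraries had at least 12.6 CPM. This came to a log2 fold change of -4.14 (standard error 1.66, edgeR adjusted p = 0.394, DESeq2 adjusted p = 0.0101). Leaving out normal Nes-GFP high replicate 1 gave -3.29 in edgeR and -3.01 in DESeq2, which then no longer called Tfam. In that DESeq2 fit Ssbp1 had -3.07, Nrf1 had -4.90 and Gabpa had 2.71. Without normal Nes-GFP high replicate 2, DESeq2 gave -9.72 for Tfam, -8.92 for Polg and -5.21 for Gabpa, with 1.06 for Nrf1. With all 14 libraries, Tfam was the 1 member with an unadjusted p under 0.05 in edgeR (9.14% of genes lower, and 0 members against 2.10% higher). It was also the 1 that DESeq2 called (10.4% of genes lower, and 0 members against 0.621% higher). edgeR called no gene with an adjusted p under 0.05 (0%).

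Polg2, with 9.70 and 5.81 CPM in normal Nes-GFP high cells, was below all 6 normal Nes-GFP low libraries, the lowest of which had 15.1 CPM. It was the 1 member without overlap on the lower side (7.85% of all tested genes), and none was wholly higher (3.48%). Its fitted log2 change was -1.64 (standard error 0.77, edgeR adjusted p = 0.451, DESeq2 adjusted p = 0.0777). The other members overlapped, with log2 fold changes from -2.40 for Polg and -1.66 for Tfb1m to 0.47 for Tefm and 1.56 for Gabpa, which was -5.19 without normal Nes-GFP high replicate 2. Of the 10 values 8 were below 0 (58.4% of all genes) and 2 above (41.1%), and their median was -0.58 against -0.27.

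In AML mice, Tfam (56.9 and 29.9 CPM against 10.6 to 23.4), Polg2 (34.2 and 56.8 against 9.89 to 25.3) and Tefm (51.5 and 53.5 against 0.162 to 12.3) were higher in both Nes-GFP high libraries than in all 4 Nes-GFP low ones, 3 of the 10 against 6.90% of all tested genes, and none was wholly lower (8.84%). No member was called by edgeR (0% of genes in each direction) or by DESeq2 (0.601% of genes higher, 6.45% lower) or by limma voom (0.00551% higher, 0% lower), and none had an unadjusted p under 0.05 in edgeR (2.50% higher, 6.48% lower). Log2 fold changes were 1.46 for Tfam (standard error 1.29, edgeR adjusted p = 0.740), 1.43 for Polg2 (standard error 0.71, edgeR adjusted p = 0.573) and 2.92 for Tefm (standard error 1.77, edgeR adjusted p = 0.612). Those of the other 7 ran from -1.43 for Nrf1 to 1.55 for Tfb1m. For Nrf1, DESeq2 gave -6.51 without AML Nes-GFP high replicate 2 and -0.35 without AML Nes-GFP high replicate 1. In all 6 were above 0 (46.1% of all genes) and 4 below (53.2%). Whether the gap between Nes-GFP high and low cells differed between AML and normal mice is the same contrast as the one tested above between the populations.

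**Figure D4:**
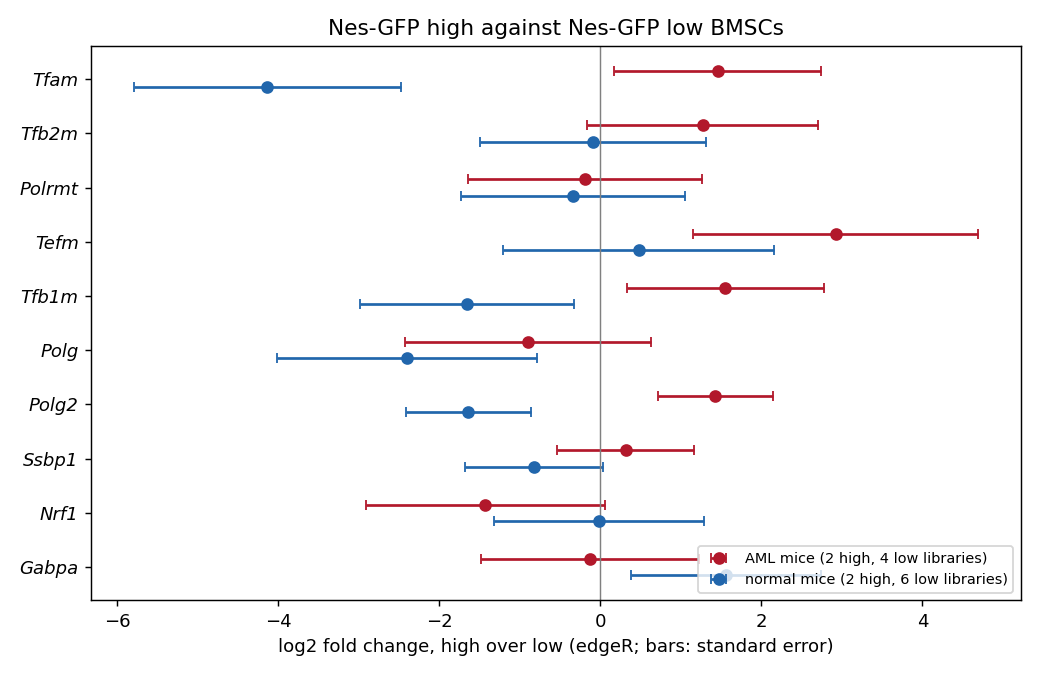
Log2 fold change of Nes-GFP high over Nes-GFP low BMSCs (edgeR, with standard error bars) for the 10 genes in AML mice (red) and in normal mice (blue). Tfam and Polg2 lie above 0 in AML mice (1.46 and 1.43) and below 0 in normal mice (-4.14 and -1.64).

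Steadiness varied among the 10 as much as level did. Across the 6 normal Nes-GFP low libraries, Gabpa had a coefficient of variation of 22.8%, lower than that of all but 2.95% of tested genes, and Ssbp1 one of 27.6% (5.39% of genes were lower). Tefm had one of 161%, above 88.2% of genes, while the median gene had 74.0%. In AML Nes-GFP low libraries Tfam (38.9%) and Polg2 (40.4%) varied least, and the median gene had 78.8%. Across the 10 Nes-GFP low libraries the highest level was 4.49 times the lowest for Polg2, 5.06 times for Ssbp1, 5.36 times for Gabpa and 8.21 times for Nrf1. It was 53.3 times or more for the other 6, up to 179 times for Tfb2m. Libraries with few reads of 1 member held many of another: normal Nes-GFP low replicate 6 had 6 reads of Tfam, 4 of Polrmt and 2 of Tefm, but 1287 of Polg and 924 of Ssbp1, the latter pair its group's highest.

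Tfb2m has a near copy in the genome, the unprocessed pseudogene Gm1818 (ENSMUSG00000091277, chr12:48555308-48559885), whose transcript is 99.3% identical to it over 1187 bases. The table gives 1014 reads to Gm1818 and 1839 to Tfb2m over the 14 libraries. In the 12 libraries with at least 20 reads of Tfb2m, Gm1818 had between 0.448 and 0.742 reads for each read of Tfb2m. Reads of a stretch that both share could be given to either, so the level of Tfb2m is uncertain. With the reads of both summed, an alternative added after the data had been seen, its log2 fold change in Nes-GFP high cells was 2.19 (standard error 1.68, edgeR adjusted p = 0.682). Ssbp1 has a processed pseudogene, Gm12115, identical to it at 97.8% of 447 bases, which took 345 reads against 9592 of Ssbp1. Exons of 4 members overlap a gene on the other strand: Polg shares 921 bases (8.57% of its exons) with Fanci, Gabpa 397 bases (6.98%) with Atp5j, Tfb1m 142 bases (3.94%) with Tiam2 and Polg2 132 bases (3.03%) with Milr1. Whether the counting used strand is not given in the sources used here, and without it such reads cannot be told apart.

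**Figure D5:**
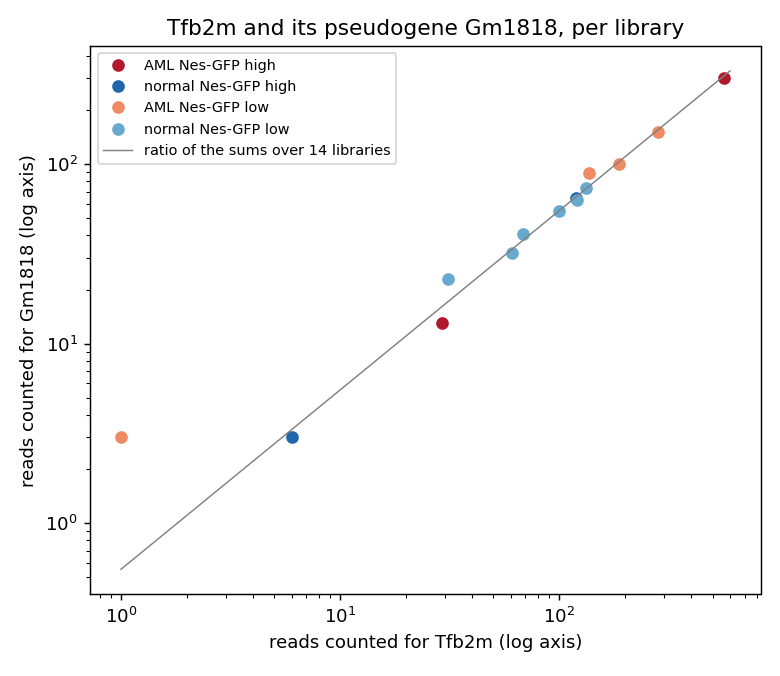
Reads counted for the pseudogene Gm1818 (log axis) against reads counted for Tfb2m (log axis), 1 point per library, colored by group, with a line at the ratio of the sums (0.551). Points of the 4 groups lie along the line from 29 to 566 reads of Tfb2m, and the point at 1 read, AML Nes-GFP low replicate 4, has 3 reads of Gm1818.

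Likeness between members from library to library varied by pair. Over the 45 pairs, the median Pearson r of log2(CPM + 1) was 0.0991 across the 14 libraries and 0.0523 across the 10 Nes-GFP low libraries, with 28 and 24 pairs above 0. Over the 14 libraries r ran from -0.678 for Ssbp1 and Gabpa to 0.780 for Tfb2m and Tfb1m. Over the 10 Nes-GFP low libraries it ran from -0.647 for Tfb1m and Ssbp1 to 0.801 for Tfam and Polrmt, whose r over all 14 was 0.245. Points of these relations share the library, its depth and its amplification, and the values are given as a description. Among all tested genes, those most like Tfam over the 14 libraries were Fig4 (r = 0.930), Bcor (0.915) and Mfn2 (0.903), the last of which encodes a mitofusin of the outer mitochondrial membrane. Closest to Tfb2m was Gm1818 (0.988). Closest to Polrmt was Pusl1 (0.849), to Tefm Map3k6 (0.917), to Tfb1m Oxnad1 (0.834), to Polg Snapc3 (0.897), to Polg2 Ppp1r7 (0.833), to Ssbp1 Trmt2a (0.934), to Nrf1 Cars (0.962) and to Gabpa Fbxo7 (0.946). No member was among the 3 closest genes of another.

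Genes that work beside these 10 were read from 7 lists. In Nes-GFP high BMSCs, edgeR called none of their 90 tested genes between AML and normal mice. At an unadjusted p under 0.05 it had 5 of the 90 higher and 4 lower, where 7.62% and 4.54% of all genes passed, and DESeq2 called 4 higher and 2 lower, where it called 6.24% and 4.27% of all genes. The lists thus held no larger share of such genes than the whole table, and the values below describe single genes. How far these values depend on single libraries was not tested. Of 11 other genes of mitochondrial DNA replication and repair, Primpol, which reprimes stalled forks, showed a fitted change of 6.70 on the log2 scale (standard error 1.90, edgeR adjusted p = 0.269, DESeq2 adjusted p = 0.000687), while the median of the list was -0.80. Of 21 genes that terminate, process or degrade mitochondrial RNA, Trmt10c, a subunit of the mitochondrial RNase P, had 6.97 (standard error 2.06, edgeR adjusted p = 0.279, DESeq2 adjusted p = 0.000688), and Lrpprc, which stabilizes mitochondrial mRNAs, had 6.14 (standard error 1.93, edgeR adjusted p = 0.282, DESeq2 adjusted p = 0.00164), with a list median of -0.77. In the same list Supv3l1, a helicase of mitochondrial RNA decay, stood on the other side with -6.16 (standard error 2.43, edgeR adjusted p = 0.362, DESeq2 adjusted p = 0.0155), as did Tbrg4 with -3.82 (standard error 1.67, edgeR adjusted p = 0.391, DESeq2 adjusted p = 0.0519), both named after their values had been seen. Creb1 had 6.44 among 9 partners and coactivators of Nrf1 and Gabpa (standard error 2.10, edgeR adjusted p = 0.296, DESeq2 adjusted p = 0.00321), where Gabpb2, a partner subunit of Gabpa, had -3.04. Among 8 genes for the nucleotide supply of mitochondrial DNA, Rrm2b had 2.51 and Tk2 had 4.41, and among 8 nucleoid proteins Phb had -1.18 and Lonp1, the protease that degrades Tfam, had 0.76.

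Transcripts made from the mitochondrial genome, which Tfam and Polrmt serve, did not pass a test in Nes-GFP high BMSCs. Summed over its 13 protein-coding genes, they took 13770 and 15806 CPM in the AML libraries, against 20202 and 17753 CPM in the normal libraries, both AML values below both normal ones, 1 of which comes from normal replicate 1. Taken singly, 5 of the 13 were wholly lower in AML and 1 wholly higher, against 11.5% and 16.0% of all tested genes. Of the 13 genes 4 had a log2 fold change above 0 (52.1% of all genes), none had an unadjusted p under 0.05, edgeR and DESeq2 called none, and the list median was -0.40. The lowest p values were those of mt-Nd1, whose fitted log2 value was -1.21 (standard error 0.57, edgeR adjusted p = 0.419), and mt-Co2, with -1.06 (standard error 0.59, edgeR adjusted p = 0.477). The libraries were made from polyA RNA. Of 20 respiratory chain genes in the nucleus known as targets of Nrf1 and Gabpa, 7 were above 0, with a median of -0.20. Sdhb, a subunit of succinate dehydrogenase, had -1.53 (standard error 0.60, edgeR adjusted p = 0.361, DESeq2 adjusted p = 0.0409), and Cox5b had -1.21.

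In Nes-GFP low BMSCs none of the 90 genes had an unadjusted p under 0.05 in edgeR, and edgeR and DESeq2 called none. List medians ran from -0.51 for replication and repair to 0.32 for nucleotide supply. The lowest p in this comparison was that of Endog, a mitochondrial nuclease, with a fitted log2 fold change of -1.94 (standard error 1.07, edgeR adjusted p = 1.0). Transcripts of the mitochondrial genome took 8995 to 20124 CPM in AML and 12828 to 20891 CPM in normal mice. Between Nes-GFP high and low cells of normal mice, the 11 replication and repair genes had a median log2 fold change of -4.12. The median over all tested genes was -0.27. DESeq2 called 5 of the 11 lower (10.4% of all genes), edgeR called none, and 4 had an unadjusted p under 0.05 in edgeR (9.14% of all genes lower). Of the 2 Nes-GFP high libraries behind these values, normal replicate 1 had no count for 27.6% of tested genes, and its part in them was not tested. In AML mice that median was -0.67, against -0.10 over all genes.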

How the data were processed

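Total counts per gene were analysed in 14 RNA-seq libraries of Nes-GFP+ BMSCs. The authors deposited raw counts, made by trimming (Trim Galore 0.4.1), alignment to the mouse genome mm10 (TopHat2 2.1.0) and featureCounts, per the submitters' processing notes, which also name DESeq2 1.14.1. Amplification was by Smart-seq2 without molecular identifiers, so intervals and floors cover counting error only. Libraries held 5615941 to 11436652 counts. A further 2 columns of the table were not used, because no labelled sample matches them. The series' design text names them as Nes-GFP high libraries, 1 of leukemic and 1 of normal mice, so each Nes-GFP high group here lacks a library that is not analysed here.

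Genes passing filterByExpr (minimum count 10) were scaled by TMM and tested in a single fit over the 4 groups with edgeR 4.0.16 (quasi-likelihood test, limma 3.58.1, R 4.3.3), with Benjamini-Hochberg adjustment over all 18152 genes and a threshold of 0.05. Standard errors were derived from the F statistic. 5 comparisons were made: AML against normal in each population, the difference of these effects, and high against low in each kind of mouse. Levels are CPM, and correlations used log2(CPM + 1).

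Alternatives were DESeq2 1.42.0, limma voom with sample quality weights, other scalings and filters, a robust fit, a fit of only the groups compared, a replicate block, and each library left out. Whether replicate numbers pair the samples is not known. The r between same-numbered samples ran from -0.164 to 0.430 over 14 pairs, and 4 were over 0.1. Differently numbered samples were not compared, so these values cannot decide it. No library was a copy of another of its own group (chi-square per degree of freedom 82.9 or more). Libraries of different groups were not compared in this way. The fit was run on simulated data with changes planted in the AML Nes-GFP low group only, which says nothing about the comparisons with Nes-GFP high groups.

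All 10 members were named, with their values. From each related list, genes were named by the lowest p, and for each member the genes most like it by Pearson r were named. The members and lists were chosen with earlier results of these data known. Positions are from GENCODE M21 (GRCm38), and promoters from RefSeq (GRCm38.p6).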

Additional observations from a re-analysis of the deposited data

Results flagged for a closer look

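Tefm in normal Nes-GFP low replicate 1 stood at 24.2 CPM, far above the other 5 libraries of its group, the next of which had 5.23 CPM. The gap was 0.790 of the group's range, against a critical value of 0.625. Of 20 groups of values tested for such a library this was the 1 found. For normally distributed values chance gives about 1 in 20, and whether that rate holds for CPM is not known. Without it, the log2 fold change of Tefm between AML and normal Nes-GFP low BMSCs was 1.72 in place of 0.26.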

How the results depend on the processing

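With DESeq2 in place of edgeR, the genes called higher and lower were 946 and 647 (AML against normal, Nes-GFP high), 36 and 82 (Nes-GFP low), 497 and 271 (difference), 98 and 1639 (high against low, normal) and 93 and 997 (high against low, AML), against 0 in each by edgeR. DESeq2 called 2 members higher in Nes-GFP high cells, 2 in the difference and 1 lower between high and low cells of normal mice. A mean of at least 10 CPM gave 1 gene lower in Nes-GFP high cells, and voom 1 gene higher between high and low cells of AML mice. With 1 library left out, edgeR called 0 to 169 genes higher and 0 to 25 lower in Nes-GFP high cells, 0 to 132 and 0 to 12 in the difference, 0 to 11 and 0 to 178 between high and low cells of normal mice, and 0 to 1 lower in those of AML mice. The highest of these counts came without normal Nes-GFP high replicate 2, except the last, without AML Nes-GFP low replicate 1. The members called by edgeR stayed at 0 throughout.

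Log2 fold changes of members that were not called changed sign as follows. With a library left out, in Nes-GFP high cells Tfb2m ran from -1.42 to 5.48, Polrmt from -3.93 to 1.04, Tfb1m from -0.83 to 3.51, Nrf1 from -6.28 to 3.98 and Gabpa from -6.36 to 4.51. In Nes-GFP low cells Polrmt ran from -0.45 to 0.33, Tefm from -0.17 to 1.72, Polg from -0.76 to 0.0841, Ssbp1 from -0.0518 to 0.74 and Nrf1 from -0.0226 to 0.51. In the difference Tfb2m ran from -2.29 to 4.62, Polrmt from -3.87 to 1.10, Ssbp1 from -0.24 to 3.69, Nrf1 from -6.50 to 3.80 and Gabpa from -5.80 to 5.07. Between high and low cells of normal mice Tfb2m ran from -3.44 to 0.90, Polrmt from -0.69 to 0.00732, Tefm from -4.45 to 1.93, Ssbp1 from -3.37 to 0.11, Nrf1 from -5.20 to 1.04 and Gabpa from -5.19 to 2.41. In AML mice Tfb2m ran from -2.32 to 2.19, Polrmt from -4.17 to 0.80, Tfb1m from -1.15 to 2.43, Ssbp1 from -0.99 to 1.01 and Gabpa from -4.20 to 0.83. Under voom, Polrmt was -1.31 in Nes-GFP high cells, -1.19 in the difference and 0.41 between high and low cells of normal mice, where Gabpa was -1.38, and Tfam was 0.18 in Nes-GFP low cells. With a mean of at least 10 CPM, Polrmt was 0.000957 in Nes-GFP low cells. Nrf1 between high and low cells of normal mice was 0.0745 with DESeq2 and with its size factors, 0.059 with TMMwsp, 0.0637 with only the groups compared, and 0.0463 with a mean of at least 10 CPM. The cause of these changes was not tested.

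The replicate block, for numbers that are not known to pair the samples, called 0 genes in the 5 comparisons. It gave 0.12 for Polg in Nes-GFP low cells, -1.07 for Tefm, 0.41 for Nrf1 and -0.44 for Gabpa between high and low cells of normal mice, and -0.14 for Tfb2m between those of AML mice. Nes-GFP high groups of 2 libraries limit what can be read from any comparison with them, and 1 read was worth 0.0915 to 0.162 CPM.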
